A study of Mus musculus with 1677 samples.

Results

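The adrenal gland was compared between the light and the dark phase in mice that ate freely. The ALF (ad libitum feeding) libraries of the series' raw count table were taken by their labelled clock time: ZT2, ZT4, ZT6, ZT8 and ZT10 formed the light group (10 libraries) and ZT14, ZT16, ZT18, ZT20 and ZT22 the dark group (10 libraries). ZT (zeitgeber time) counts hours from lights on, in a cycle of 12 h light and 12 h dark. The 4 libraries of ZT0 and ZT12, at the light changes, belonged to neither group. They entered a 24-h cosine fit over all 24 ALF libraries and the estimate of spread in the light versus dark test. The table holds 48 adrenal libraries among 1035 libraries of 22 tissues.

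All mice were wild-type C57BL/6J animals, 10 weeks old when bought, kept on normal chow for 2 weeks and then on a Western diet (45% fat, 17% sucrose) for 7 weeks. ALF animals had the diet at all hours. The TRF (time-restricted feeding) animals, used here for a second measurement of the same phase difference, were fed the same diet for 9 h, from ZT13 to ZT22. Each clock time has 2 libraries per feeding group. The labels do not say whether each library came from a separate animal or gland, so the p-values below measure the spread between these libraries.

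The adrenal gland joins a steroid-producing cortex to a medulla of chromaffin cells, which store catecholamines. In the cortex, the outer zona glomerulosa makes aldosterone and the zona fasciculata makes corticosterone, under the control of the pituitary hormone ACTH. Corticosterone in mice peaks around the onset of the dark phase, when these nocturnal animals become active, and the cortex holds its own molecular clock: BMAL1 (encoded by Arntl) with CLOCK or NPAS2 drives the Per, Cry and Nr1d genes, whose products repress the drivers.

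The libraries held 7975884 to 18850980 counts in ALF (median 10598781) and 7391451 to 14045140 in TRF. CPM are counts scaled to library size, with TMM factors for single genes and without them for sums of markers. Zona fasciculata markers summed to 50480 to 67990 CPM in the light and 50220 to 66360 CPM in the dark. The 8 chromaffin markers summed to 8020 to 20610 and 7421 to 16110 CPM, so cortex and medulla were both present in every library. The summed level of 6 liver markers varied from 0.97 to 7501 CPM, with a median of 90.1 in the light and 525.6 in the dark, and passed 1000 CPM in 7 libraries, 3 of the light and 4 of the dark. The summed level of 13 adipocyte markers was 2482 to 4476 CPM in the light (median 2989) and 2314 to 9470 CPM in the dark (median 4026), with 3 dark libraries above 5000 CPM. Their part in the results below was not tested, and counts made without these libraries are given beside many of the gene groups. Without the 7 liver-rich libraries ZT4 keeps no library, and of the dark clock times only ZT18 keeps both replicates. That fit was therefore made in 2 ways, with clock time as the factor as in the main test, which called 166 genes, and with phase as a single factor, which counts the course within a phase as error and called 592; values are given for both, named by clock time or by phase. One ZT0 library stood apart: replicate 1 had 466.6 CPM of the heat shock gene Hspa1b against 13.79 CPM in replicate 2, 110 against 35.3 CPM of Per1, and 10820 against 3565 CPM of Akr1b7. It has no part in the light and dark means but enters the spread of the phase test and the 24-h fit. Without it the phase test called 2045 genes and the rhythm test 2304. Among genes described below, Per3, Nfil3, Gch1 and Fbxl21 then passed the phase test (adjusted p = 0.0279, 0.00538, 0.0296 and 0.0439, edgeR). Sod2 then did not (0.0506). The rhythm calls of Bhlhe40, Cyp11a1, Cyp11b2, Maoa, Cd79a and Cd79b also changed.

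Of 15074 genes tested with edgeR's quasi-likelihood test, 1694 (11.2%) differed between the phases at a Benjamini-Hochberg adjusted p under 0.05. They divided into 913 (6.06%) higher in the light and 781 (5.18%) higher in the dark. Most differences were small: the median absolute log2 difference of the called genes was 0.29, and 320 of them reached 0.5. Over all genes the median light minus dark log2 difference was -0.007. A bulk tissue measurement cannot tell fewer cells of a type from less RNA per cell.

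The 24-h cosine fit called 1972 genes (13.1%) rhythmic, with a median amplitude of 0.22 on the log2 scale (the distance from the fitted mean to the fitted peak). Light versus dark called 1136 of these, which is 57.6% of the rhythmic genes and 67.1% of the light versus dark calls. The other 836 were rhythmic only. Fitted peaks were most frequent between ZT6 and ZT8, with 274 genes, and a second group lay between ZT18 and ZT20, with 192 genes. Of the genes peaking between ZT6 and ZT8, 261 were also called light versus dark, against 6 of the 142 peaking between ZT10 and ZT12 and 7 of the 158 peaking between ZT22 and ZT24. A gene that peaks at a light change has like means in both phases, so the 2-phase comparison has little to read there.

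**Figure D1:**
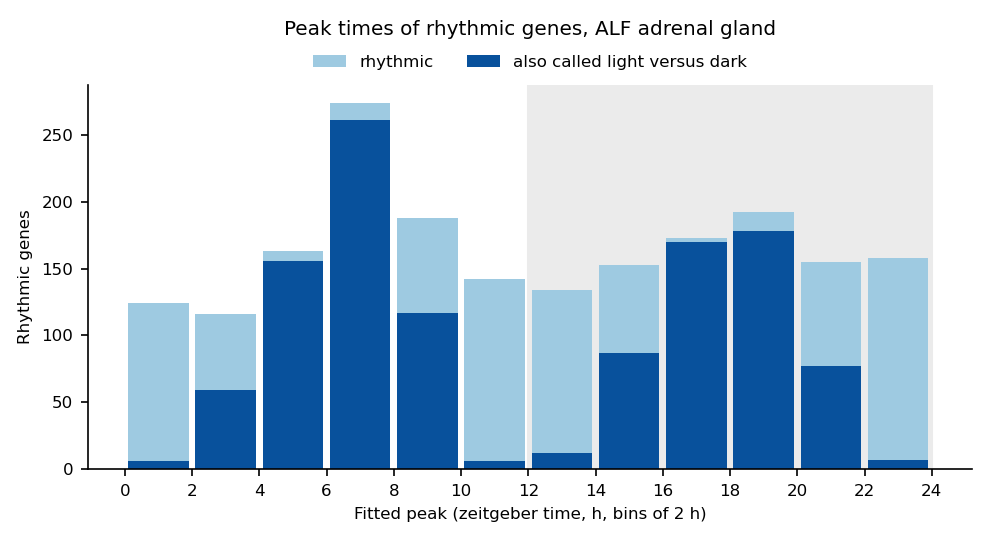
Number of rhythmic genes (y axis) by fitted peak in zeitgeber hours (x axis, bins of 2 h), for 1972 genes of the 24 ALF libraries; dark blue marks genes that also passed the light versus dark test, and grey shading marks the dark phase. The bin from 6 to 8 h holds 274 genes and the dark blue share is smallest next to the light changes.

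Clock genes were among the largest phase differences. Of 24 clock and clock-output genes, all of which passed the filter on low counts, 6 were higher in the light, 6 were higher in the dark and 17 were rhythmic. The count of 12 called genes is 50.0% of the list, beside 11.2% of all genes. The list holds textbook clock genes and, like the other lists, was chosen with earlier results of these data known. Of the 24, 8 were called by clock time and 4 by phase without the liver-rich libraries, 11 without the adipocyte-rich libraries and 9 with marker levels as terms.

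Promoter sequences of 4 clock repressors are shown because their fitted peaks ran from ZT11.5 (Ciart) over ZT13.0 (Per3) to ZT18.7 (Cry1), while Per1 passed no test, and because they hold different clock elements. The capitals mark the E-box CACGTG, bound by BMAL1 and its partners, its variant CACGTT, or the D-box TTATGTAA or TTATGCAA, bound by the DBP family. Each sequence is from RefSeq, build GRCm38.p6, runs 5′ to 3′ on the gene's strand and ends at the base before the gene's start. Per1 lies at chr11:69098699-69098948 on the plus strand, upstream of the RefSeq start and inside the longer GENCODE span of the gene. Cry1 lies at chr10:85185065-85185304, Ciart at chr3:95882252-95882478 and Per3 at chr4:151044666-151044915, all on the minus strand and directly upstream of the annotated gene.
Per1: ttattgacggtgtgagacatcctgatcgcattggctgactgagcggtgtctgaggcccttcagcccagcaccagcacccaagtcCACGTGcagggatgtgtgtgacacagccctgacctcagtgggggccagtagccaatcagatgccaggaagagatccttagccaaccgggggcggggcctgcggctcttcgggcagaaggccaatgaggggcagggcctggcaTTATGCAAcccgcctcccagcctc
Cry1: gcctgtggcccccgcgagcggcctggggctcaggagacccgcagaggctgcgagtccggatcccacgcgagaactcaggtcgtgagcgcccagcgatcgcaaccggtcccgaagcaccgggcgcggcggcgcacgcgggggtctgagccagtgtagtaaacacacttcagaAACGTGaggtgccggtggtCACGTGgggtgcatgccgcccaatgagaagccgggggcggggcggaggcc
Ciart: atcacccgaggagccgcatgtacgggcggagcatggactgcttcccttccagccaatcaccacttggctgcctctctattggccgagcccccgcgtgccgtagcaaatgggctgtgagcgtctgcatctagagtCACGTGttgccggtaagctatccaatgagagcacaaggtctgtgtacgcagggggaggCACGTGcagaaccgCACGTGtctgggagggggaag
Per3: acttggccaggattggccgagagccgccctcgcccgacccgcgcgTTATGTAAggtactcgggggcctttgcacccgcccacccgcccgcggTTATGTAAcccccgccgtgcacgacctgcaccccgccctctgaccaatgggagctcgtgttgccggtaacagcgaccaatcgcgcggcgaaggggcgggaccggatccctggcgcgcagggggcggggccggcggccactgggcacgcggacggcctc
The E-box was found at position -166 of Per1, at -50 of Cry1 and at -93, -35 and -21 of Ciart, where -1 is the last printed base and the motif's first base is counted. The CACGTT variant stood at -69 of Cry1, on the opposite strand (printed AACGTG), and D-boxes at -24 of Per1 and at -205 and -158 of Per3. Both strands were searched over the 250 bases upstream of each start. CACGTG occurred in 6.02% of all 32851 such windows, CACGTT in 3.85% and the D-box in 1.5%. Of the 19 clock genes with a window, 5 held CACGTG (Bhlhe41, Ciart, Cry1, Per1 and Tef), 4 held CACGTT and 2 held the D-box. A match is a description of the letters and not a measured binding site.

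Among the activators, Arntl ranged from 8.76 to 91.4 CPM in the light (median 26.9) and from 17.6 to 114 CPM in the dark (median 67.1). The phases overlapped widely because the transcript fell through the light phase, from a mean of 80.3 CPM at ZT2 to 9.41 CPM at ZT10, and climbed through the dark, from 18.2 CPM at ZT14 to 112 CPM at ZT22. Its light minus dark log2 difference was -1.06 ± 0.11 (SE; edgeR adjusted p = 5.49e-05), and the cosine amplitude was 1.76 ± 0.09 with a peak at ZT22.4. Npas2, the partner that can replace CLOCK, had the largest amplitude of all rhythmic genes, 2.16 ± 0.11, with a peak at ZT22.9. Its phase difference was -0.86 ± 0.14 (edgeR adjusted p = 0.00165). Without the liver-rich libraries both passed by clock time (-1.53 and -1.23, adjusted p = 0.00099 and 0.0169, edgeR) and neither by phase (-1.10 and -0.70, adjusted p = 0.25 and 0.59). Clock itself was called rhythmic only, with an amplitude of 0.33 ± 0.04 and a peak at ZT22.7, so the 3 activators peaked within 1 hour of each other.

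Nr1d1, which encodes the repressor REV-ERBα, had 125 to 297 CPM in the light (median 220.2) and 23.1 to 102.5 CPM in the dark (median 33.5). Every light library was above every dark library. The log2 difference was 2.32 ± 0.16 (edgeR adjusted p = 1.11e-06), with a peak at ZT7.99, the largest difference of the genes higher in the light that the naming rule took (mean of at least 5 CPM). Nr1d1 overlaps Thra on the opposite strand at its 3′ end, and whether the counting used strand is not given in the sources used here. Its paralog Nr1d2 was also higher in the light, by 0.93 ± 0.09 (edgeR adjusted p = 2.62e-05), with overlapping phases and a peak at ZT9.98. Bhlhe41, a repressor that competes for E-boxes, differed by 0.88 ± 0.13 (edgeR adjusted p = 0.00109) and peaked at ZT10.0.

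Cry1 showed the reverse pattern, with 7.15 to 22.4 CPM in the light (median 10.9) and 32.0 to 51.4 CPM in the dark (median 44.5). The ranges did not overlap. The log2 difference was -1.94 ± 0.12 (edgeR adjusted p = 1.11e-06) and the peak lay at ZT18.7. Per2 ranged from 23.7 to 112 CPM in the light and from 58.9 to 162 CPM in the dark. The ranges overlapped, the difference was -1.35 ± 0.19 (edgeR adjusted p = 0.000579) and the peak was at ZT16.1.

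The repressors peaking near lights off had little phase difference but were rhythmic. Per3 (amplitude 0.98 ± 0.06, peak ZT13.0), Cry2 (0.39 ± 0.04, ZT11.7) and Ciart (1.55 ± 0.20, ZT11.5) passed the rhythm test, while their phase differences had edgeR adjusted p-values of 0.0515, 0.444 and 0.443. Per1 passed neither test, with 22.2 to 73.7 CPM in the light, 26.1 to 84.9 CPM in the dark and rhythm adjusted p = 0.584 (edgeR). Bhlhe40 passed neither with all libraries (rhythm adjusted p = 0.805, edgeR), and without ZT0 replicate 1 it was rhythmic, with an amplitude of 0.51 (edgeR adjusted p = 6.5e-05).

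Among the outputs, Dbp, a transcription factor that carries the clock's time to D-box genes, had 30.0 to 219 CPM in the light (median 140.3) and 12.4 to 91.5 CPM in the dark (median 23.6). The phases overlapped, because the level rose through the light to 205 CPM at ZT12. The difference was 1.69 ± 0.21 (edgeR adjusted p = 0.000239) and the peak lay at ZT9.56. Tef, of the same family, was rhythmic without a phase difference (amplitude 0.90 ± 0.05, peak ZT12.1). Nfil3, a repressor at the same D-boxes, peaked on the other side of the cycle, at ZT22.3 (amplitude 1.06 ± 0.16).

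The nuclear receptors Rora and Rorb were neither called nor rhythmic (edgeR adjusted p = 0.798 and 0.382 for the phase difference). Csnk1e and Hlf passed the phase test with adjusted p-values of 0.0267 and 0.0294 (edgeR), and lost the call in 8 and 12 of the 24 refits that left out 1 library each (highest adjusted p 0.0625 and 0.0699). Csnk1d, the other casein kinase 1 listed, had no called difference (log2 difference 0.07 ± 0.04). Without the 7 libraries rich in liver markers, 16 of the 17 rhythmic clock genes passed the rhythm test again, the exception being Per2 (adjusted p = 0.13, edgeR).

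**Figure D2:**
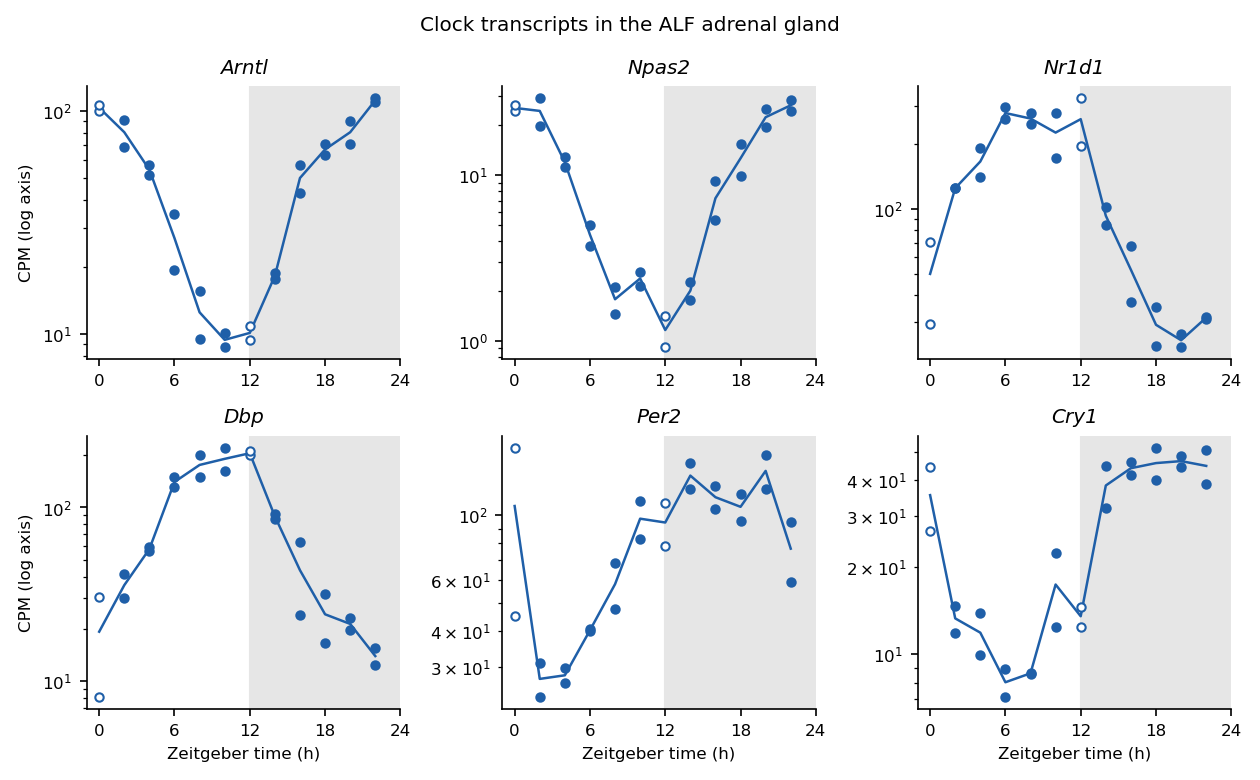
Level in CPM (y axis, log scale) of 6 clock transcripts against zeitgeber time (x axis, h) in the 24 ALF libraries; filled points are the light and dark libraries, open points ZT0 and ZT12, the line joins the means and grey marks the dark phase. Nr1d1 and Cry1 separate the phases completely, while Arntl, Npas2 and Dbp cross the phases because they turn near the light changes.

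The heat shock genes formed the next group, whose protein products (chaperones) fold other proteins and are induced by warmth and by other stress. Of 20 tested members of a list of 21 cytosolic and mitochondrial chaperones and cochaperones, 17 were higher in the dark, none was higher in the light and 18 were rhythmic, with peaks between ZT18.9 and ZT22.0. That is 85.0% of the members called, all in the dark direction, where 5.18% of all genes were called. The median log2 difference of the list was -0.54. Hsf1, which encodes the heat shock transcription factor, Bag3 and Hspb1 did not pass the phase test.

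Hspa1b, an inducible HSP70, had 6.35 to 10.3 CPM in the light (median 8.52) and 19.2 to 84.7 CPM in the dark (median 29.4). No light library reached the lowest dark library. The log2 difference was -2.16 ± 0.46 (edgeR adjusted p = 0.00831), the largest in the dark direction that the naming rule took. Hspa1a, a near-identical copy whose reads the counting may have divided or shared with Hspa1b, had 5.30 to 8.65 CPM in the light and 12.6 to 51.9 CPM in the dark, again without overlap (-1.85 ± 0.44, edgeR adjusted p = 0.0133).

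Hsph1, an HSP70 cochaperone, had 86.9 to 143 CPM in the light (median 108) and 179 to 469 CPM in the dark (median 296), a difference of -1.40 ± 0.21 (edgeR adjusted p = 0.00109). Hspa8, the constitutive HSC70, had 676 to 1063 CPM in the light and 1089 to 1921 CPM in the dark (-0.82 ± 0.12, edgeR adjusted p = 0.000752). Chordc1 and Fkbp4, cochaperones of HSP90, differed by -0.72 ± 0.13 and -0.54 ± 0.09 (edgeR adjusted p = 0.00418 and 0.00273). In all 4 genes the phases did not overlap. The naming rule took these genes for the smallest adjusted p of the list in this same test. How many of all genes separate in this way was not counted.

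Hspe1 and Hspd1, the mitochondrial chaperonin pair, were looked at after their values were seen, because the windows upstream of both hold the heat shock element. Hspe1 had 141 to 212 CPM in the light and 198 to 288 CPM in the dark, ranges that overlapped narrowly (-0.53 ± 0.11, edgeR adjusted p = 0.0092), and Hspd1 differed by -0.48 ± 0.11 (edgeR adjusted p = 0.014). A short stretch upstream of Hspe1 (RefSeq, GRCm38.p6, chr1:55088053-55088082, plus strand, inside the annotated 5′ end of Hspd1, which runs the opposite way) is printed with the heat shock element in capitals.
Hspe1: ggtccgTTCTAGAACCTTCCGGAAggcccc
The element was searched on both strands as 3 units, GAA and TTC in turn and 2 bases apart, and here 2 matches overlap, with starts at -73 and -68 from the annotated start of Hspe1. It was found in 0.47% of all 32851 windows and in those of 2 of the 17 heat shock genes with a window, this pair. In the other 15 these letters are not in the window.

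The cold-inducible RNA-binding proteins, which rise when body temperature falls, moved the opposite way: all 3 listed members were higher in the light. Of all genes 6.06% were called in that direction. The list is short and was chosen with earlier results of these data known. Cirbp had 61.7 to 101 CPM in the light (median 83.0) and 26.1 to 48.5 CPM in the dark (median 39.2), without overlap. The difference was 1.08 ± 0.13 (edgeR adjusted p = 0.000239) and the peak lay at ZT7.21. Rbm3 differed by 0.43 ± 0.07 (edgeR adjusted p = 0.0024) and Srsf5, a splicing factor, by 0.40 ± 0.08 (edgeR adjusted p = 0.00759). Body temperature was not analysed here.

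With the 7 liver-rich libraries left out, 2 of the 20 heat shock genes were called by clock time, Hsph1 and Hspa8 (17 had an unadjusted p under 0.05, and Hspa1b gave -2.13, adjusted p = 0.115, edgeR), and 17 by phase, all in the dark direction. With the 3 libraries rich in adipocyte markers left out, 14 were. With marker levels as terms in the fit 14 were called, and Hspa1a passed neither of these last 2 fits (log2 difference -1.68 and -1.47, adjusted p = 0.052 and 0.099, edgeR). Cirbp kept its call in these 4 fits, with log2 differences of 1.12, 1.05, 1.05 and 1.00, and the cold-inducible count was 2, 1, 3 and 2 of 3.

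**Figure D3:**
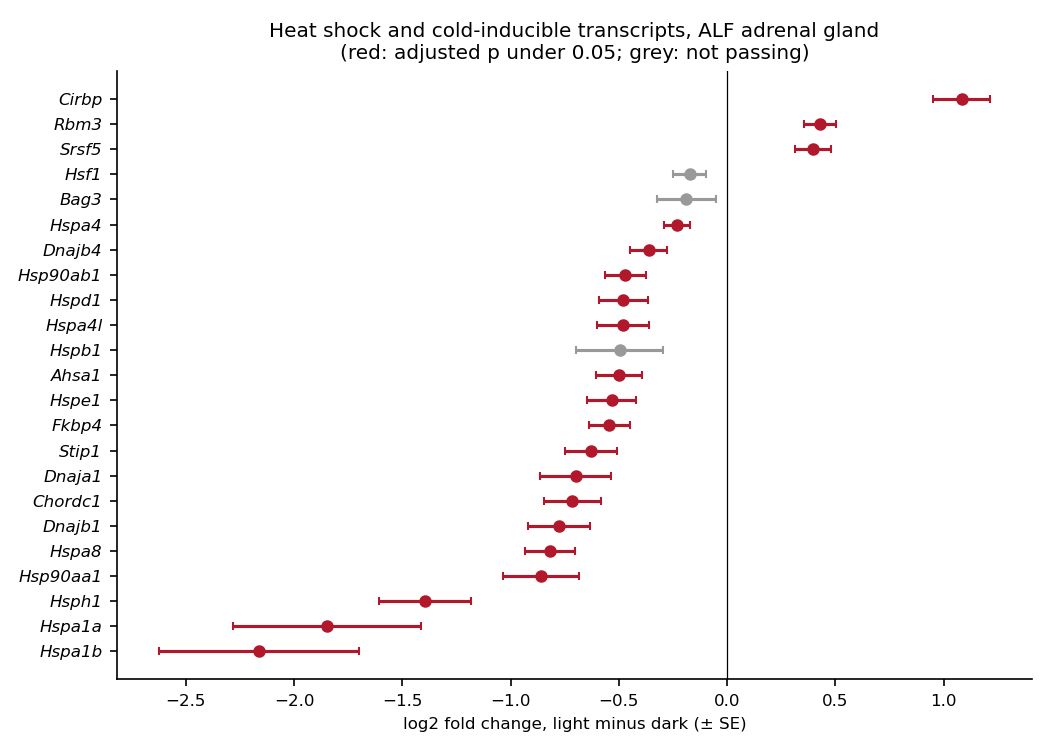
Light minus dark log2 fold change (x axis, points with SE bars, 24 ALF libraries) of the 20 tested heat shock genes and 3 cold-inducible genes (y axis); red passed an adjusted p of 0.05 and grey did not. All 20 heat shock points lie left of 0 and all 3 cold-inducible points right of it.

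Of 19 tested steroid-synthesis genes (20 listed), 4 were higher in the dark (Akr1b7, Cyp17a1, Hsd11b1 and Por), none in the light and 5 were rhythmic, with a list median of -0.03. The called share was 21.1%, beside 5.18% of all genes in that direction. Star, which carries cholesterol into the mitochondrion and is the acutely regulated step, had 9668 to 24260 CPM in the light (median 16180) and 9480 to 20000 CPM in the dark (median 14250). The phases overlapped almost fully and the difference did not pass (0.11 ± 0.11, edgeR adjusted p = 0.501). Star was rhythmic, however, with an amplitude of 0.42 ± 0.09, a peak at ZT11.5 and a rhythm adjusted p of 0.00631 (edgeR). Its mean was lowest at ZT4, 10310 CPM, and highest at ZT12, 24920 CPM.

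The enzymes of the corticosterone pathway did not pass the phase test. Cyp11b1, which makes corticosterone in its last step, had 5654 to 8384 CPM in the light and 4623 to 7250 CPM in the dark (0.17 ± 0.08, edgeR adjusted p = 0.127). Cyp21a1 and Hsd3b1 differed by 0.10 ± 0.08 and 0.05 ± 0.08 (edgeR adjusted p = 0.352 and 0.677), with rhythm adjusted p-values of 0.653 and 0.72. Cyp11a1, which cuts the cholesterol side chain, had a small rhythm (amplitude 0.16 ± 0.05, edgeR adjusted p = 0.0453) that did not pass without ZT0 replicate 1 (adjusted p = 0.082) and in 15 other refits that left out 1 library. Cyp11b1 with Cyp11b2, and Hsd3b1 with Hsd3b6, are close copies, and the counting may have divided reads between them.

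Akr1b7, an aldose reductase of the fasciculata that responds to ACTH, had 1799 to 3683 CPM in the light (median 2471) and 2900 to 5715 CPM in the dark (median 4018). The ranges overlapped and the difference was -0.69 ± 0.17 (edgeR adjusted p = 0.0156), with a peak at ZT21.0. Cyp17a1, an enzyme that the adult mouse adrenal is known to lack almost entirely, was near the detection limit, at 0.34 to 3.27 CPM in the light and 1.48 to 6.46 CPM in the dark (-1.47 ± 0.24, edgeR adjusted p = 0.00354). Hsd11b1, which regenerates corticosterone from its inactive form, differed by -0.29 ± 0.07 (edgeR adjusted p = 0.0164) and Por, the electron donor of microsomal P450 enzymes, by -0.37 ± 0.10 (edgeR adjusted p = 0.0287).

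Without the liver-rich libraries none of the 4 steroid genes passed by clock time (Akr1b7 -0.68, adjusted p = 0.18, edgeR; 5 of the list had an unadjusted p under 0.05). By phase 1 passed, Akr1b7 (-0.72, adjusted p = 0.044, edgeR), and the values of Cyp17a1, Hsd11b1 and Por were -1.20, -0.24 and -0.28 (adjusted p = 0.075, 0.16 and 0.28). Liver expresses Hsd11b1 and Por, and the liver marker sum differed in median between the phases as given above. Whether liver tissue had a part in the differences of Hsd11b1 and Por was not tested. Por also lost its call in 10 of the 24 refits that left out 1 library (highest adjusted p 0.0682).

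The ACTH signalling list held 4 called genes of 27, 1 higher in the light and 3 in the dark, and 8 rhythmic genes, a called share of 14.8% beside 11.2% of all genes. Mrap, the accessory protein that brings the ACTH receptor to the membrane, had 80.1 to 164 CPM in the light and 111 to 215 CPM in the dark. The ranges overlapped and the difference was -0.60 ± 0.13 (edgeR adjusted p = 0.00993), with a peak at ZT21.3. The receptor itself, Mc2r, which is outside the naming rule and was added after its values were seen, did not differ (0.13 ± 0.07, edgeR adjusted p = 0.274). Prkar2b, a regulatory subunit of protein kinase A, had 441 to 666 CPM in the light and 611 to 844 CPM in the dark, a difference of -0.50 ± 0.05 (edgeR adjusted p = 8.68e-05). The other calls in this list were Adcy4 and Adcy9, adenylyl cyclases, which lost the call in 17 and 17 of the 24 refits that left out 1 library. Steroidogenic transcription factors gave 1 call among 14 (7.1%), Nr5a2 (lost in 15 such refits), and 1 rhythmic gene, Ctnnb1. No such factor passed the phase test without the liver-rich libraries, without the adipocyte-rich ones or with marker terms. The ACTH count ranged from 2 to 7 when 1 library was left out, and without the liver-rich libraries 1 gene, higher in the dark, was called by either form of the fit.

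**Figure D4:**
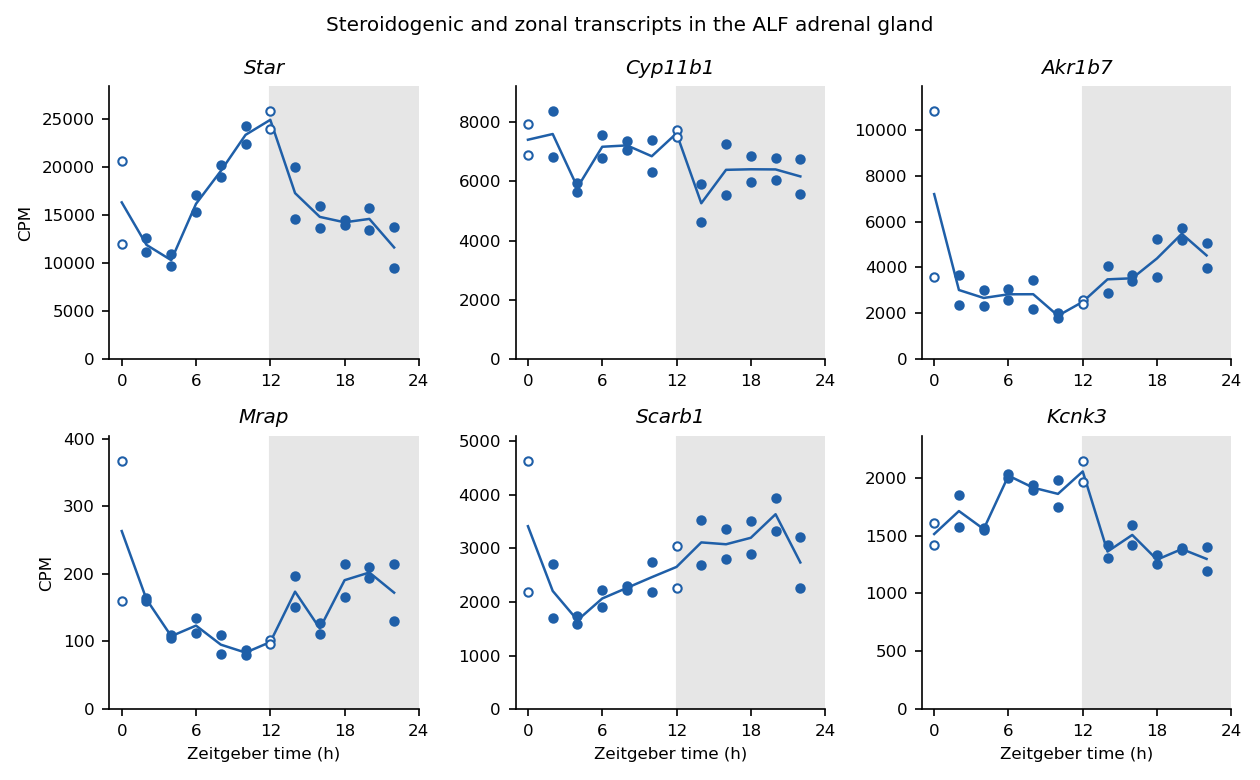
Level in CPM (y axes start at 0) against zeitgeber time (x axis, h) of 6 cortical transcripts in the 24 ALF libraries; filled points are light and dark libraries, open points ZT0 and ZT12, the line joins the means and grey marks the dark phase. Star rises through the light to its highest mean at ZT12, Akr1b7, Mrap and Scarb1 are higher in the dark with 1 high ZT0 library, and Cyp11b1 stays nearly level.

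Cholesterol is the substrate of all steroids. In its synthesis 7 of 24 genes were called, all in the dark direction (29.2%, beside 5.18% of all genes in that direction), with a list median of -0.31 and 5 rhythmic genes. Cyp51, the lanosterol demethylase, had 31.4 to 47.6 CPM in the light (median 38.2) and 37.0 to 88.6 CPM in the dark (median 65.3). The ranges overlapped and the difference was -0.72 ± 0.16 (edgeR adjusted p = 0.0115). Dhcr7, which makes cholesterol in the last step, differed by -0.54 ± 0.12 (edgeR adjusted p = 0.0101), Pmvk by -0.50 ± 0.09 (edgeR adjusted p = 0.00301) and Lss, the lanosterol synthase, by -0.43 ± 0.08 (edgeR adjusted p = 0.00316).

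In cholesterol uptake, storage and traffic 6 of 18 genes were higher in the dark and none in the light (33.3%, beside 5.18% of all genes in the dark direction). Scarb1, the HDL receptor through which mouse adrenal cells take up cholesterol esters, had 1584 to 2747 CPM in the light (median 2202) and 2261 to 3952 CPM in the dark (median 3272). The ranges overlapped in part, and the difference was -0.57 ± 0.13 (edgeR adjusted p = 0.0129). Vps13a, a lipid-transfer protein, and Lrp1, a lipoprotein receptor, differed by -0.50 ± 0.06 and -0.25 ± 0.05 (edgeR adjusted p = 0.000285 and 0.00831).

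The synthesis count was 4 to 10 when 1 library was left out, and 3 without the adipocyte-rich libraries or with marker terms, where the uptake count was 2. Without the liver-rich libraries 1 synthesis gene (Lss) and 1 uptake gene (Vps13a) were called by clock time, against 5 and 2 by phase. Lss passed in each of these fits. Scarb1 passed in all but that by clock time (-0.52, adjusted p = 0.168, edgeR), and Cyp51 only by phase without the liver-rich libraries (-0.75, adjusted p = 0.025).

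Zona glomerulosa genes differed in both directions. Of 15 tested members of 17, 3 were higher in the light, 1 in the dark and 6 were rhythmic, with a list median of 0.19. The shares were 26.7% called and 40.0% rhythmic, beside 11.2% and 13.1% of all genes. Kcnk3, a potassium channel that sets the resting potential of glomerulosa cells, had 1549 to 2034 CPM in the light (median 1871) and 1195 to 1594 CPM in the dark (median 1383). Most light libraries were above all dark ones, with a narrow overlap, and the difference was 0.40 ± 0.05 (edgeR adjusted p = 0.000239). Clcn2, a chloride channel of the same cells, differed by 0.43 ± 0.05 (edgeR adjusted p = 9.49e-05) and Vsnl1, a calcium sensor, by 0.55 ± 0.10 (edgeR adjusted p = 0.00511).

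Agtr1a, an angiotensin II receptor, went the other way, with 280 to 390 CPM in the light and 347 to 530.1 CPM in the dark (-0.41 ± 0.06, edgeR adjusted p = 0.00128). Cyp11b2, the aldosterone synthase that defines the zone, had 346 to 681 CPM in the light and 280 to 732 CPM in the dark and did not pass (0.42 ± 0.17, edgeR adjusted p = 0.115). Its rhythm was just outside the threshold (adjusted p = 0.0511, edgeR) and inside it without ZT0 replicate 1 (0.0183). The summed glomerulosa markers ran from 1675 to 2189 CPM in the light and from 1385 to 2567 CPM in the dark. Without the liver-rich libraries, by clock time and by phase, Vsnl1 did not pass (0.48 and 0.46, adjusted p = 0.085 and 0.20, edgeR), and Kcnk3, Clcn2 and Agtr1a did.

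None of the 13 genes of catecholamine synthesis and storage passed the edgeR test, 5 had an unadjusted p under 0.05, and DESeq2 called 1, higher in the dark. In the 24-h fit 3 of them were rhythmic, among them Gch1, which makes the cofactor of tyrosine hydroxylase (amplitude 0.47 ± 0.11, peak ZT21.8, edgeR adjusted p = 0.00923) and Maoa (0.25 ± 0.07, ZT10.0, edgeR adjusted p = 0.0405), of which Maoa lost the call in 12 of the 24 refits that left out 1 library, ZT0 replicate 1 among them (adjusted p = 0.053). Of 30 genes of the chromaffin granule and its excitation, 1 was called (3.3%), Chrnb4, a nicotinic receptor subunit, with 23.0 to 49.9 CPM in the light and 11.9 to 33.3 CPM in the dark (0.62 ± 0.16, edgeR adjusted p = 0.0244). Its call was lost in 5 refits without 1 library, ZT2, ZT4, ZT8 or ZT10 replicate 2 or ZT16 replicate 1 (highest adjusted p 0.0618). Chrnb4 did not pass in either fit without the liver-rich libraries or without the adipocyte-rich ones. It passed with marker terms (0.61, adjusted p = 0.0277, edgeR). Stx1a, a syntaxin of vesicle release, was rhythmic (amplitude 0.36 ± 0.07, peak ZT22.7, edgeR adjusted p = 0.00208).

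Genes that respond to glucocorticoids in many tissues gave 4 calls in 23, 1 higher in the light and 3 in the dark (17.4%, beside 11.2% of all genes), with a list median of -0.15. Tsc22d3, which encodes the glucocorticoid-induced leucine zipper protein, had 71.2 to 126 CPM in the light (median 96.8) and 101 to 193 CPM in the dark (median 144). The ranges overlapped, and the difference was -0.50 ± 0.07 (edgeR adjusted p = 0.000327), with a peak at ZT15.7. Sgk1, a kinase of sodium handling, and Angptl4, an inhibitor of lipoprotein lipase, differed by -0.31 ± 0.07 and -0.66 ± 0.12 (edgeR adjusted p = 0.0143 and 0.0034). Klf9, a repressor-type zinc finger factor, was higher in the light, by 0.31 ± 0.07 (edgeR adjusted p = 0.00863). In both fits without the liver-rich libraries Angptl4 passed and Sgk1 did not. Tsc22d3 passed by clock time (adjusted p = 0.0452, edgeR) and not by phase (0.10), and Klf9 by phase (0.0375) and not by clock time (0.0802).

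Immediate early genes, which respond within minutes to stimulation, gave 2 calls in 19 (10.5%, about the 11.2% of all genes), Klf2 and Klf4, both higher in the dark, the second of which was lost in 12 of the 24 refits that left out 1 library. Klf2 had the smaller p (-0.37 ± 0.07, edgeR adjusted p = 0.00604), and Jun was the 1 rhythmic member (amplitude 0.27 ± 0.05, peak ZT11.1). No member passed the phase test without the liver-rich libraries, without the adipocyte-rich ones or with marker terms. Endoplasmic reticulum chaperones gave 3 calls in 20 (Calr, Hsp90b1 and, lost in 15 such refits, Pdia6). All were in the dark direction (15.0%, beside 5.18% of all genes in that direction and 11.2% in either direction). Calr, a calcium-binding chaperone, had 744 to 839 CPM in the light and 840.3 to 1029 CPM in the dark. These ranges touched without overlapping, and the difference was -0.30 ± 0.05 (edgeR adjusted p = 0.00344). Hsp90b1 differed by -0.25 ± 0.06 (edgeR adjusted p = 0.0153). The count for this list ran from 2 to 10 when 1 library was left out. Without the liver-rich libraries it was 0 by clock time and 1 by phase. It was 2 without the adipocyte-rich libraries or with marker terms.

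Antioxidant enzymes gave 2 calls in 22 (Sod2 and Txn2, lost in 19 and 3 of the 24 refits that left out 1 library). Both were in the dark direction. The share of 9.1% stands beside 5.18% of all genes in that direction and 11.2% in either direction. No antioxidant enzyme passed in either fit without the liver-rich libraries or with marker terms. Without the adipocyte-rich ones 1 did, Txn2 (adjusted p = 0.0487, edgeR). None of the 6 genes of ascorbate and retinoid handling passed the edgeR test, none had an unadjusted p under 0.05 and DESeq2 called 0. Of 16 proliferation genes, 1 was called (6.2%), Mcm6, a subunit of the replication helicase (0.31 ± 0.08, edgeR adjusted p = 0.0231), which lost its call without ZT2 or ZT10 replicate 1, ZT6 or ZT14 replicate 2, or ZT16 replicate 1 (highest adjusted p 0.0549). Mcm6 did not pass without the liver-rich libraries, without the adipocyte-rich ones or with marker terms. Mki67, the proliferation marker, was rhythmic with an amplitude of 0.47 ± 0.10 and a peak at ZT14.4 (edgeR adjusted p = 0.0108).

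Among the 10 largest differences each way that the naming rule took, several genes lay outside all lists. Fmo2, a flavin monooxygenase, had 66.9 to 97.9 CPM in the light (median 76.4) and 110 to 230.0 CPM in the dark (median 180), without overlap. The difference was -1.13 ± 0.09 (edgeR adjusted p = 5.96e-06), and it kept its call without the liver-rich libraries (-1.12 by clock time and -1.13 by phase, adjusted p = 0.00766 and 0.00076, edgeR). Tmem86a, a membrane protein that hydrolyses lysoplasmalogens, had 105.5 to 177 CPM in the light (median 137) and 51.3 to 90.1 CPM in the dark (median 76.0), again without overlap (0.90 ± 0.14, edgeR adjusted p = 0.00126). Without the liver-rich libraries Tmem86a passed by phase and not by clock time (adjusted p = 0.0016 and 0.0769, edgeR).

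Shh, the signal secreted by progenitor cells under the adrenal capsule, had 56.3 to 104 CPM in the light (median 87.0) and 30.2 to 72.7 CPM in the dark (median 47.9). The ranges overlapped, and the difference was 0.77 ± 0.16 (edgeR adjusted p = 0.00841). It did not pass without the liver-rich libraries (adjusted p = 0.197 by clock time and 0.061 by phase, edgeR). Rdh1, a retinol dehydrogenase, Myo1a, an unconventional myosin, and Csrnp1, a nuclear protein, were higher in the light by 0.96 ± 0.19, 0.84 ± 0.15 and 0.80 ± 0.18 (edgeR adjusted p = 0.00576, 0.00379 and 0.0121). Without the liver-rich libraries Rdh1 passed in both forms of the fit, Csrnp1 only by phase and Myo1a in neither.

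Cys1, a cilium-associated protein, had 2.78 to 6.61 CPM in the light and 6.44 to 16.3 CPM in the dark (-1.04 ± 0.11, edgeR adjusted p = 5.49e-05), with the ranges just meeting. Gsta3, a glutathione transferase abundant in liver, had 14.6 to 98.8 CPM in the light and 26.0 to 220.4 CPM in the dark (-1.44 ± 0.30, edgeR adjusted p = 0.00785). Without the liver-rich libraries its difference was -1.20 by clock time and -1.26 by phase (adjusted p = 0.0138 and 0.0065, edgeR), and with marker terms it was -0.61 (0.075).

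Genes of other cells in and around the gland also differed. Of 13 adipocyte genes, 4 were higher in the dark (Fabp4, Retn, Plin1 and Pnpla3; 30.8%, beside 5.18% of all genes), with a list median of -0.59. Retn, which encodes resistin, had 52.2 to 105 CPM in the light and 71.7 to 194 CPM in the dark (-0.67 ± 0.16, edgeR adjusted p = 0.0142), and Fabp4, a fatty acid carrier, had 873 to 1768 and 974 to 4919 CPM (-0.54 ± 0.15, edgeR adjusted p = 0.0344). None of the 4 passed without the 3 adipocyte-rich libraries (log2 differences -0.14 for Fabp4 and -0.39 for Retn), or in either fit without the liver-rich ones, where 1 other member passed by clock time. When single libraries were left out, between 1 and 8 of the list were called.

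In the macrophage list 2 of 11 genes were higher in the dark (18.2%, beside 5.18% of all genes in that direction). They were Mrc1, a mannose receptor (-0.55 ± 0.09, edgeR adjusted p = 0.0021), and Cd163, a haemoglobin scavenger receptor (-0.87 ± 0.17, edgeR adjusted p = 0.00564). Mrc1 passed without the liver-rich libraries by phase (adjusted p = 0.034, edgeR) and not by clock time (0.0916), and Cd163 by neither. The summed macrophage markers were 1304 to 1918 CPM in the light and 1499 to 1865 CPM in the dark. Of 7 lymphocyte genes 3 (42.9%, beside 6.06% of all genes higher in the light), all of B cells, were higher in the light at low levels. Ms4a1 (CD20) had 0.50 to 4.24 CPM in the light and 0.29 to 2.29 CPM in the dark (1.45 ± 0.30, edgeR adjusted p = 0.0122, and 0.052 without ZT10 replicate 1). Cd79a and Cd79b lost their calls in 9 and 13 of the 24 such refits (highest adjusted p 0.074 and 0.0926).

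Of 8 endothelial genes, 3 were higher in the dark (37.5%, beside 5.18% of all genes in that direction). They were Emcn and Tek, which lost the call in 14 and 18 of the 24 refits that left out 1 library, and Kdr, a VEGF receptor (-0.33 ± 0.06, edgeR adjusted p = 0.00247). No endothelial gene passed in either fit without the liver-rich libraries, where 4 had an unadjusted p under 0.05 by clock time (Kdr adjusted p = 0.0653 by clock time and 0.09 by phase, edgeR). None of the 9 fibroblast and capsule genes passed the edgeR test, 5 had an unadjusted p under 0.05, and DESeq2 called 1. None of the 6 liver genes passed in either direction, none had an unadjusted p under 0.05 and DESeq2 called 0, with a list median of -1.66.

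The same contrast in the 24 TRF libraries, which the ALF test does not use, called 3255 of 15398 genes (21.1%), 1661 higher in the light and 1594 in the dark, and the 24-h fit called 4274 of 15078 (28.3%). Of the 1694 genes called in ALF, 1568 (92.6%) had the same sign in TRF and 1011 passed there in the same direction, which is 59.7% of the ALF calls and 31.3% of the TRF calls. In the opposite direction 10 passed. All 20 heat shock genes were higher in the dark in TRF, where 10.4% of all genes were (list median -0.81), and 20 of 24 cholesterol synthesis genes were (list median -0.65). In TRF 1 macrophage gene was called, higher in the light, where 10.8% of all genes were. Of the endothelial genes 3 were higher in the light and 1 in the dark. Among those called in ALF, Cd163, Mrc1, Emcn and Tek had higher medians in the TRF dark (7.52, 34.6, 181.9 and 128.5 CPM). Their medians in the TRF light were 5.21, 31.6, 174.3 and 120.8 CPM. Kdr had the lower median in the TRF dark (251.8 against 267.1 CPM). No gene of these 2 lists passed the test of a difference between the feeding groups. Nr1d1 and Cry1 differed by 2.46 and -1.95 (edgeR adjusted p = 5e-11 and 3.5e-11). The chromaffin markers summed to 16060 to 29980 CPM in the light and 16350 to 41000 CPM in the dark in TRF, above most ALF light and dark libraries, and the part of this in the feeding comparison was not tested.

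The phase difference itself differed between the feeding groups in 21 of 15398 genes (0.136%) by an interaction contrast in edgeR, 13 higher (0.0844%) and 8 lower (0.052%) in TRF. In 7 of these 21 both groups passed with opposite signs. The 24-h rhythm differed in 165 genes (1.07%). Npas2 was higher in the dark in ALF and in the light in TRF, with 0.93 to 34.2 CPM in the TRF light and 0.40 to 20.1 CPM in the TRF dark (difference between groups 1.82, edgeR adjusted p = 0.0117). Arntl had no called phase difference in TRF (-0.01, edgeR adjusted p = 0.99), and the difference between groups was 1.05 (edgeR adjusted p = 0.0232).

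Pdk4, Pck1 and Angptl4, which are known to rise in fasting in other tissues, were among the 5 largest differences higher in TRF. The others were Npas2, described above, and Rnf125 (difference between groups 1.49). Pdk4, the kinase that spares glucose by blocking pyruvate oxidation, had 38.4 to 93.3 CPM in the ALF light and 48.6 to 166 CPM in the ALF dark, and 156 to 423 CPM in the TRF light and 33.0 to 384 CPM in the TRF dark. It showed no called difference in ALF (-0.42, edgeR adjusted p = 0.232) and was higher in the light in TRF (1.58, edgeR adjusted p = 3.6e-05). Pck1, of gluconeogenesis, followed the same pattern (-0.24 in ALF, 1.46 in TRF), and Angptl4 passed in both groups with opposite signs (-0.66 and 1.01). The TRF mice had no food from ZT22 to ZT13, which covers the light libraries. Whether the hours without food had a part in these differences was not tested.

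In the other direction, Vsnl1, Pak3, Fgf11 and Slc12a2 were higher in the light in ALF and in the dark in TRF, with differences between groups of -0.90, -0.78, -0.57 and -0.49. Slc12a2, a chloride cotransporter, had 163 to 248 CPM in the ALF light and 128 to 223 CPM in the ALF dark (0.31 ± 0.04, edgeR adjusted p = 0.00058). Fgf11 lost its ALF call in 12 of the 24 refits that left out 1 library (highest adjusted p 0.0854). Lss was higher in the dark in both groups, more so in TRF (-0.43 and -0.93). These 11 genes all kept their interaction call under DESeq2. With phase as a single factor 2 kept it, and 2 did with ZT0 counted as light and ZT12 as dark. None did when either replicate was left out at every clock time, a fit that also had phase as a single factor.

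**Figure D5:**
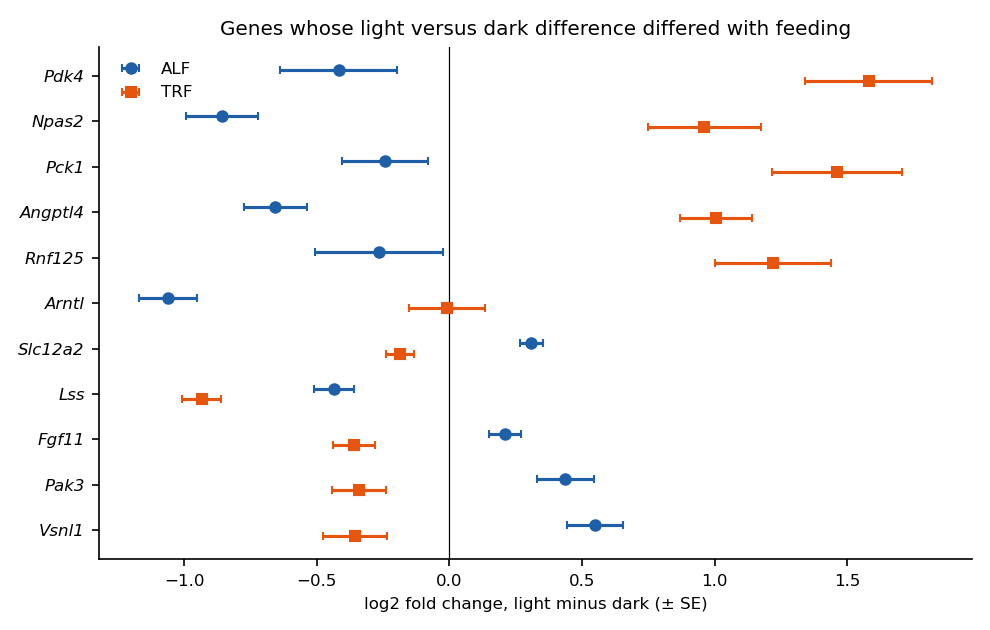
Light minus dark log2 fold change (x axis, points with SE bars) of 11 genes (y axis) in ALF (blue circles) and TRF (orange squares), 24 libraries each; the genes are those with the largest differences between the feeding groups among those passing the interaction test. Angptl4, Npas2, Fgf11, Pak3, Slc12a2 and Vsnl1 lie on opposite sides of 0 with both values called, and Lss is negative in both.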

How the data were processed

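Adrenal libraries were prepared from polyadenylated RNA with a stranded kit after extraction by one of 2 methods and run on one of 2 instruments, per the labels' protocols, which do not say which library had which. The deposited table holds estimated counts per gene, which the authors left not normalized. Of its values 31.23% are not whole and all of those end in 0.5, so they were rounded to whole numbers, ties to even. Per the submitters' processing notes, CASAVA 1.8, FastQC 0.11.8, STAR 2.5.3a and HOMER 4.10 were used with GRCm38 (mm10); the annotation and the use of strand are not given in the sources used here. The other 987 columns, of other tissues, were not used, and 4 rows with a repeated gene name were left out, which left 24533 rows.

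Samples were grouped by the feeding and clock time in their labels. Genes were filtered with filterByExpr over feeding and phase, scaled by TMM and tested with edgeR 4.0.16 (R 4.3.3): clock time was a factor with 12 levels over 24 ALF libraries, so the spread comes from libraries of the same clock time, and the contrast was the mean of the light times minus the mean of the dark times. The 24-h fit tested a cosine and a sine together. P-values were adjusted by the Benjamini-Hochberg method over all genes tested, at 0.05. Standard errors, amplitudes and peak times came from limma 3.58.1 on log2 CPM (prior count 2). The TRF phase contrast and the differences between feeding groups were fitted over all 48 adrenal libraries, and the TRF 24-h fit over the 24 TRF libraries. Genes were named as members of the clock and steroid lists, up to 4 of each other list by smallest adjusted p, and the largest differences, amplitudes and feeding differences with a mean of at least 5 CPM; the text gives a selection, and some members of the lists are counted but not reported by name here. The members and the lists were chosen with earlier results of these data known. On simulated counts for the light versus dark contrast (14981 and 14987 genes), 73.5% of 200 genes changed by 0.5 log2 and 95% of 200 changed by 1 were found.

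Alternatives were DESeq2 1.42.0, DESeq2 size factors, no filter, a replicate block, GC content offsets, other treatments of clock time, and leaving out each library, replicate number or clock time. Chosen after seeing the data were fits without the libraries rich in liver or adipocyte markers and with marker levels as terms.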

Additional observations from a re-analysis of the deposited data

Results flagged for a closer look

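In the ALF groups of 10 libraries, 15 values stood apart from the rest of their phase. The test was for a single outlying value, which chance passes in about 1 of 20 groups. It was made for the genes of the text in both phases, so some of these flags are due by chance. Whether 15 is more than that was not tested. The libraries of a phase span different clock times, which the test does not take into account. At ZT22, replicate 2 was the lowest dark library for Per2 (58.93 CPM, median of the others 123.2), Star (9480 against 14540 CPM) and Dhcr7 (413.2 against 677.9 CPM), and replicate 1 was the lowest for Cirbp (26.1 against 40.08 CPM). Other dark libraries stood apart at ZT14, where replicate 2 was lowest for Srsf5 (71.41 against 122.5 CPM) and highest for Fabp4 (4919 against 1574 CPM), and at ZT16, where replicate 2 was lowest for Plin1 (134.1 against 218.0 CPM) and highest for Kdr (427.6 against 319.4 CPM). Csnk1d was highest at ZT20 replicate 1 (205.5 against 179.2 CPM) and Fgf11 lowest at ZT18 replicate 2 (29.96 against 35.93 CPM).

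In the light phase, ZT4 replicate 2 was lowest for Lrp1 (262.9 against 314.7 CPM) and Cys1 (2.777 against 5.352 CPM). Vsnl1 was lowest at ZT2 replicate 2 (54.32 against 85.95 CPM), Klf9 at ZT2 replicate 1 (78.72 against 108.8 CPM) and Mrc1 at ZT8 replicate 2 (23.69 against 34.87 CPM).

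The light minus dark difference changed with feeding, by the interaction contrast in edgeR, in the 11 named genes plotted above. TRF minus ALF was 1.999 for Pdk4, 1.819 for Npas2, 1.705 for Pck1, 1.661 for Angptl4, 1.486 for Rnf125 and 1.053 for Arntl. It was -0.903 for Vsnl1, -0.778 for Pak3, -0.567 for Fgf11, -0.497 for Lss and -0.494 for Slc12a2, all on the log2 scale.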

How the results depend on the processing

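The light versus dark count in ALF (1694) was 1991 with DESeq2, 1695 with DESeq2 size factors, 1480 without a filter and 2030 with GC offsets. It was 1093 to 2091 with any 1 library left out (lowest without ZT8 replicate 2, and 1103, 1129, 1119 and 1114 without ZT4 replicate 2, ZT6 replicate 1, ZT10 replicate 1 and ZT18 replicate 2), and 1096, 1053 and 1036 without ZT6, ZT8 or ZT14. It fell to 715 with ZT0 counted as light and ZT12 as dark, where Npas2 turned to 0.02568 (adjusted p = 0.93, edgeR), to 183 and 196 with replicate 1 or replicate 2 alone left out at all times, which has fewer samples and phase as a single factor, and to 320 at 0.5 log2. The fits added after seeing the data gave 166 without the libraries above 1000 CPM of liver markers, 592 with phase as a single factor as well, 746 without those above 5000 CPM of adipocyte markers and 467 with marker terms. The cause was not tested.

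The 24-h rhythm count (1972) was 2570 with DESeq2, 1630 to 2304 with 1 library left out, 240 and 179 without replicate 1 or 2, 665 without the liver-rich libraries and 814 at an amplitude of 0.25. The TRF count (3255) was 2923 with phase as a single factor and 2068 with ZT0 and ZT12 included. It was 390 and 1091 without replicate 1 or 2, also with phase as a single factor. The feeding difference (21) was 86 with DESeq2, 37 with GC offsets, 5 with phase as a single factor and 2 with ZT0 and ZT12 included. It was 0 without replicate 1 or 2, also with phase as a single factor, where edgeR gave 660 and 734 genes at an unadjusted p under 0.05.

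Replicate numbers did not pair the libraries in the same way at all clock times. Over 66 pairs of clock times the correlations of deviations ran from -0.408 to 0.858 (median 0.266). Of these, 40 were above 0.1 and 20 below -0.1. With the replicate block the counts were 1935, 2105, 3381 and 36, and 42 for the feeding difference with GC offsets and the replicate block. Of 80 named genes called light versus dark, 57 kept the call in all 24 refits without 1 library and 79 under DESeq2. With 2 libraries per clock time, of 7975884 counts or more, differences of 0.5 log2 were missed in part on simulated counts.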

Other observations

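Hdc, which encodes the enzyme that makes histamine, had one of the 10 largest amplitudes of the ALF rhythm fit without a called phase difference. Its mean was 22.7 CPM at ZT2, fell to 3.30 CPM at ZT10 and was 18.3 CPM at ZT20, with an amplitude of 1.26 ± 0.11, a peak at ZT23.2 and a light minus dark log2 difference of -0.30 ± 0.14 (edgeR adjusted p = 0.168). Fbxl21, an F-box protein that acts on cryptochromes, was also rhythmic without a called phase difference, with an amplitude of 0.52 ± 0.09 and a peak at ZT2.29, the earliest peak among the rhythmic clock genes. Without ZT0 replicate 1 Fbxl21 passed the phase test (adjusted p = 0.0439, edgeR). In ZT0 replicate 1, Per2 stood at 171 CPM, Nfil3 at 107 CPM and Mrap at 367 CPM, against 45.0, 20.9 and 159 CPM in replicate 2.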
